A study of Drosophila melanogaster with 9 samples.

Results

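This account concerns the RNA of *Drosophila* S2 cells treated with double-stranded RNA (dsRNA) against HP1a, set against S2 cells treated with dsRNA against GFP. It uses 6 of the 9 RNA-seq libraries of the series, 3 for HP1a RNAi and 3 for the control. The 3 libraries of Su(var)3-9 RNAi enter only where they are named. S2 is an established cell line of embryonic origin. Per the labels, 1 µg of dsRNA was transfected and cells were harvested after 3 days, and total RNA was sequenced. The label text that gives this amount names HP1a and Su(var)3-9 and not the GFP control, while the study's methods give it for each well. The series aimed at pericentromeric heterochromatin, and the question taken up here is which functions of protein-coding genes outside it moved. Members were the genes whose identifier begins with CG, which made 14088 of the 15168 genes in the deposited table. Values were TPM, a transcript abundance corrected for length, rescaled so that these genes sum to 1000000 in each library, and are called TPM of coding genes below. Of the 14088 genes, 8116 had a mean of at least 1 over the 6 libraries and were tested.

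HP1a is the founding heterochromatin protein 1. Its chromodomain binds histone H3 methylated at lysine 9, and its chromoshadow domain forms dimers and recruits partners. In flies it coats pericentromeric heterochromatin and the fourth chromosome. It also lies along some active euchromatic genes, heat shock genes among them.

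The HP1a gene, Su(var)205 (CG8409), went against its label. The 3 libraries labelled HP1a RNAi held 3789, 2796 and 2849 TPM of coding genes, against 596, 495 and 526 in the control. All 3 lay far above the highest control. The log2 fold change of 2.53 had an SE of 0.14 and an adjusted p of 0.0009, and stayed between 2.15 and 2.61 under the 16 alternative settings tried. The 2 annotated transcripts moved in opposite directions. Transcript CG8409-RA fell to 38.3, 34.8 and 47.6 TPM in libraries labelled HP1a RNAi, against 439, 365 and 230 in the control (log2 fold change -3.03, SE 0.25, adjusted p = 0.032). Transcript CG8409-RB rose to 3751, 2762 and 2801 TPM, against 156, 130 and 297 in the control (log2 fold change 4.07, SE 0.31, adjusted p = 0.032). In the Su(var)3-9 RNAi libraries RA stood at 383, 365 and 404 TPM and RB at 116, 169 and 107. The groups are called below by their labels, and every direction given is that of the libraries labelled HP1a RNAi relative to the control. Whether reads from the transfected dsRNA are counted in these TPM was not tested. The study checked the knockdown separately, at the protein level, and reported a decrease of HP1a protein. That check was not analysed here.

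**Figure D1:**
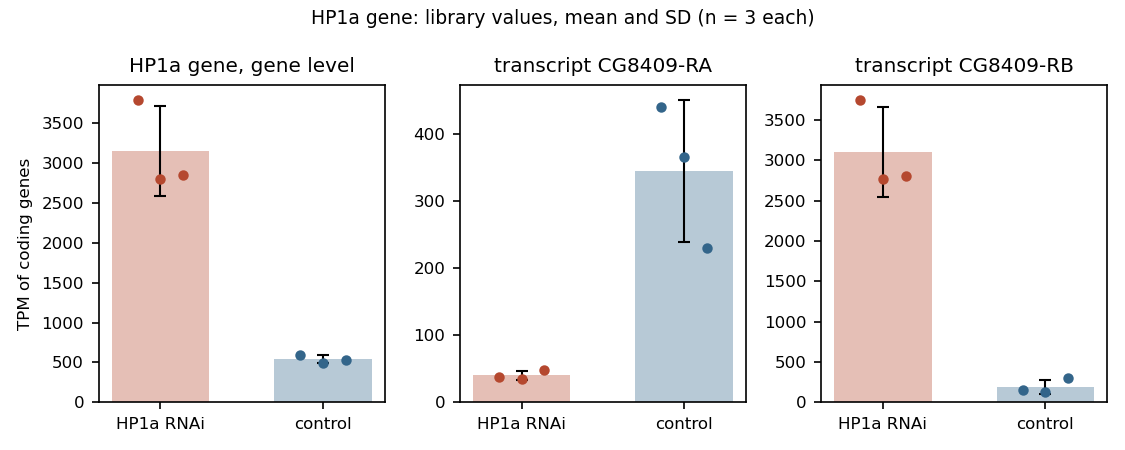
TPM of coding genes for the HP1a gene and its 2 transcripts in the libraries labelled HP1a RNAi (left bars) and the control (right bars). Points are libraries, bars the mean and lines the SD (n = 3 each). RA lies below and RB above every control library.

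TPM keep no record of sequencing depth, so depth per library is unknown here and no counting interval is given. Genes with a CG identifier took 10.4%, 10.2% and 11.1% of the deposited TPM in libraries labelled HP1a RNAi, against 15.3%, 10.9% and 15.1% in the control. Control library 3 stood apart, with correlations of log2 values of 0.955 to 0.960 with the other 5 libraries, against 0.964 to 0.981 among those. The hemocyte markers srp, ush and crq were between 32.2 and 107 TPM in all 6 libraries, while NimC1 was at most 0.39. Of the 7 tested hemocyte markers 1 lay wholly above and 1 wholly below the control, Pxn with the values given below and Hml at 4.72, 4.41 and 4.77 TPM in libraries labelled HP1a RNAi, against 6.19, 8.36 and 8.39 in the control. None was called by limma, and 2 had an unadjusted p under 0.05, as did 14.1% of all tested genes. The list took 0.042%, 0.040% and 0.034% of coding TPM, against 0.034%, 0.038% and 0.034% in the control. Markers of fat body and muscle were at or near 0, with maxima of 2.76 for Lsp1beta and 2.54 for Mlc2. Of the neuronal markers nSyb, Syt1, brp and para were at most 1.89 TPM, and elav had 3.08, 4.22 and 3.60 TPM in libraries labelled HP1a RNAi, against 7.75, 6.61 and 6.93 in the control. The labels call the samples replicates and do not say whether they came from separate cultures, so p-values measure the spread between these libraries.

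Of the 8116 genes, 62 (0.764%) passed an adjusted p of 0.05 and are referred to as called. The call was higher in the libraries labelled HP1a RNAi for 13 genes (0.16%) and lower for 49 (0.604%). In all 62 the 2 groups did not overlap, as was true of 21.4% of all tested genes. An unadjusted p under 0.05 was reached by 1148 genes (14.1%). The count depended on each library: it was 11, 20 and 13 without HP1a RNAi libraries 1, 2 and 3, and 22, 16 and 47 without control libraries 1, 2 and 3. On TPM as deposited, without rescaling, 440 genes were called, 9 higher and 431 lower, while the median log2 fold change of all tested genes moved from 0.01 to -0.25, and all directions below are after rescaling. Heat shock genes made up 8 of the 49 lower calls. None of the 182 tested genes of the study's heterochromatic list was called by limma, while 29 of them (15.9%) had an unadjusted p under 0.05. The study, with a different test on other values, did report a small group of heterochromatic genes as differentially expressed. Genome-wide it reported more differentially expressed genes after HP1a RNAi than the 62 called here. Outside both lists there were 41 lower calls and 12 higher calls besides the HP1a gene. By roles assigned after the values were seen, 9 of these genes belong to detoxification and redox control, 6 to metabolism, 4 to secreted and immune proteins, 6 to RNA, protein and DNA handling, and 4 to membrane proteins and transport. No role is given here to the other 24.

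**Figure D2:**
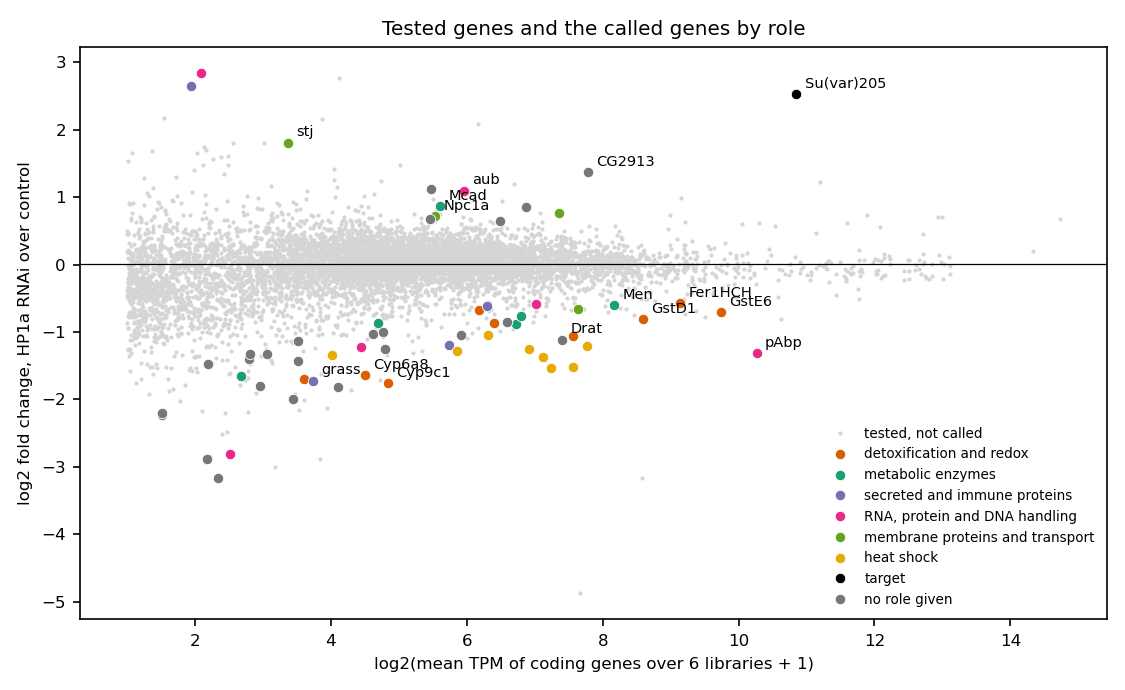
Log2 fold change of HP1a RNAi over control against the mean level over 6 libraries for the 8116 tested genes (grey) and the 62 called genes, coloured by role. Of the called genes 49 lie below the horizontal line, which is the median of all tested genes, and 13 above it.

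Detoxification and redox genes were called lower in 9 cases and higher in none. Cytochrome P450 enzymes oxidise foreign compounds and endogenous lipids and hormones. Cyp9c1 fell to 12.4, 12.2 and 11.4 TPM in libraries labelled HP1a RNAi, against 40.1, 39.0 and 50.5 in the control (log2 fold change -1.76, SE 0.15, adjusted p = 0.004). Cyp6a8 fell to 8.48, 10.3 and 11.3 TPM, against 33.6, 35.1 and 31.0 in the control (log2 fold change -1.64, SE 0.15, adjusted p = 0.006). The replicates of each group lay close together, and both calls held under all 16 alternative settings. In the Su(var)3-9 RNAi libraries Cyp9c1 had 20.8, 18.7 and 11.5 TPM and Cyp6a8 had 18.2, 12.6 and 25.9. Those values also lay below every control. Cyp6a20 moved less, at 53.7, 54.1 and 56.9 TPM against 87.0, 97.8 and 80.2 in the control (log2 fold change -0.67, SE 0.11, adjusted p = 0.042).

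Glutathione S-transferases join glutathione to electrophiles. The abundant GstE6 fell to 625, 692 and 636 TPM in libraries labelled HP1a RNAi, against 1057, 1093 and 1023 in the control (log2 fold change -0.70, SE 0.09, adjusted p = 0.018). GstD1 fell to 277, 289 and 272 TPM, against 479, 465 and 526 in the control (log2 fold change -0.81, SE 0.09, adjusted p = 0.012). Both groups were tight in these genes and lay well apart. Members of the GstD and GstE clusters are close copies of each other, and how the counting divided reads between them is uncertain. The call of GstD1 was lost when any 1 of the 3 libraries labelled HP1a RNAi was left out.

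The remaining redox genes were MsrA, Prx6b, AOX3 and Fer1HCH. MsrA, which reduces oxidised methionine in proteins and is also known as the ecdysone-induced gene Eip71CD, had 127, 104 and 135 TPM in libraries labelled HP1a RNAi, against 233, 238 and 293 in the control (log2 fold change -1.05, SE 0.14, adjusted p = 0.019). Prx6b, a peroxiredoxin, which reduces peroxides, had 3.08, 4.31 and 7.38 TPM, against 19.5, 14.1 and 18.9 in the control (log2 fold change -1.69, SE 0.28, adjusted p = 0.048). AOX3, an aldehyde oxidase, had 59.5, 57.2 and 58.6 TPM, against 97.3, 100.05 and 126 in the control. Fer1HCH, the heavy chain of ferritin, the iron store, had 477, 439 and 442 TPM, against 625, 691 and 699 in the control. In each of these 4 genes the highest library labelled HP1a RNAi lay below the lowest control. Of the 9 called genes of this role, 2, 2 and 3 stayed called without HP1a RNAi libraries 1, 2 and 3, and 3, 3 and 8 without control libraries 1, 2 and 3. Cyp9c1 and Cyp6a8 were among those kept each time.

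**Figure D3:**
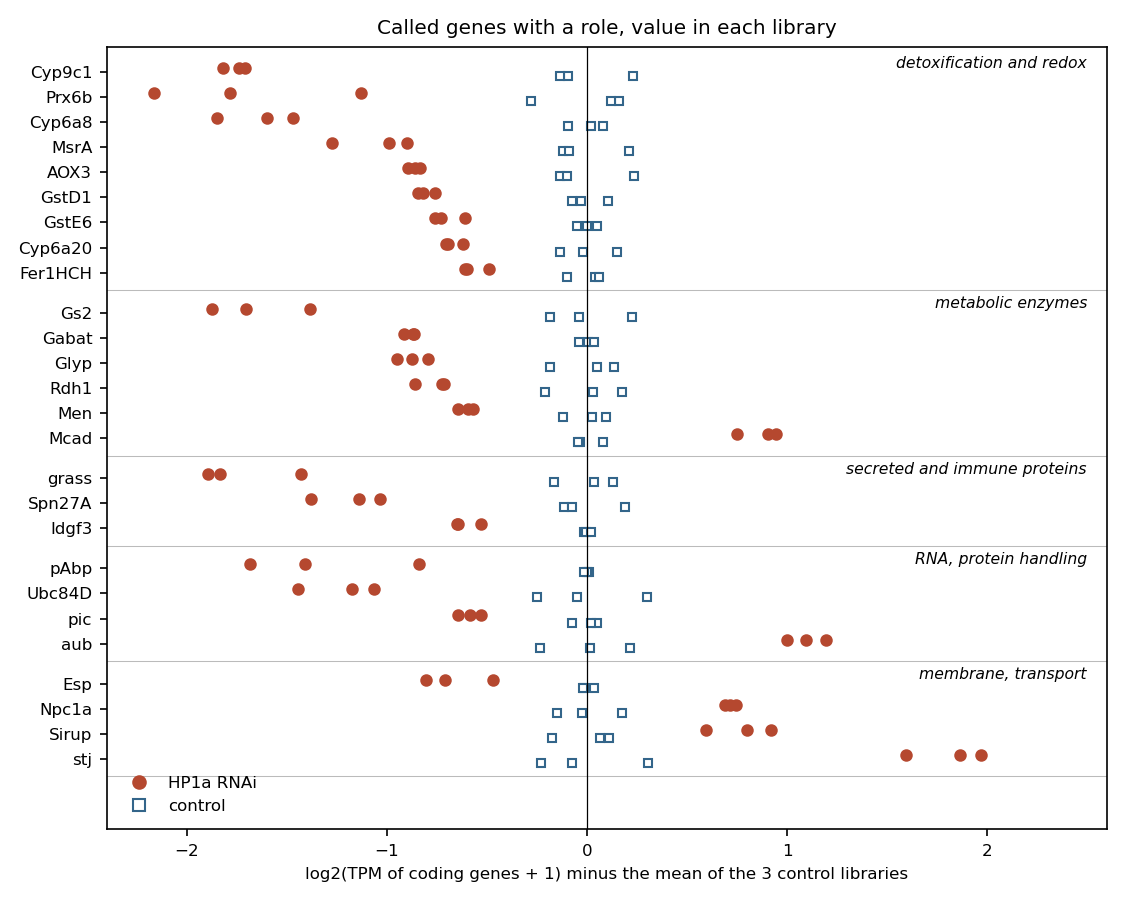
Called genes with a role, as the log2 value of each library minus the mean of the 3 control libraries. Filled circles are libraries labelled HP1a RNAi and open squares are controls. The detoxification and redox genes all lie to the left of their controls, while Mcad, aub, Npc1a, Sirup and stj lie to the right.

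The wider families leaned the same way. Of the 42 tested genes of the oxidative stress and detoxification list, 3 were called lower and none higher, 36 lay below the median of all tested genes, and 17 had all 3 libraries labelled HP1a RNAi below every control (40.5%, against 10.7% of all tested genes). The median log2 fold change was -0.38 relative to all tested genes. Most members of this list are glutathione S-transferases, so it shares genes with the list that follows. Outside that family, Prx2, Gclc, MtnA and the called Fer1HCH lay wholly below the control, while Sod1, Sod2, Cat and Trxr1 overlapped it. Prx2 had 861, 824 and 773 TPM against 936, 1068 and 1037 in the control. Sod1 had 607, 574 and 594 TPM against 580, 556 and 615. Glutathione S-transferases, a list drawn up after values were seen, had 29 of 31 members below the median of all tested genes and 14 without overlap below. The list's summed share of coding TPM was 0.264%, 0.261% and 0.260% in the libraries labelled HP1a RNAi, against 0.377%, 0.377% and 0.371% in the control. That sum includes the called GstE6 and GstD1, with means of 651 and 279 TPM, against 1058 and 490 in the control. The share of the members not called was not summed separately. Among members that were not called, GstO3 stood at 186, 140.3 and 167 TPM against 252, 254 and 267 in the control, and its adjusted p of 0.054 was outside the threshold. GstE13 stood the other way, at 93.6, 75.5 and 82.2 TPM against 89.5, 69.1 and 61.7 in the control, with overlap. Of 36 tested P450 genes, also listed after values were seen, 3 were called lower, 30 lay below the median and 18 did not overlap below the control. Many of them had means under 7.62 TPM, a range in which 18.4% of tested genes lay wholly below the control. What part that lean has in this list was not tested. The abundant Cyp12d1-d had 183, 174 and 194 TPM against 238, 231 and 238 in the control, without overlap (adjusted p = 0.13), while Cyp9f2 had 73.5, 74.5 and 73.8 TPM against 67.0, 71.3 and 89.0. UDP-glycosyltransferases, which add sugars to foreign compounds, had 10 tested members, none called by limma, and a median of -0.04. An unadjusted p under 0.05 was reached by 1, against 14.1% of all tested genes.

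Metabolic enzymes gave 5 lower calls and 1 higher. Gabat, the transaminase that breaks down GABA, fell to 71.9, 74.1 and 74.4 TPM in libraries labelled HP1a RNAi, against 137, 139.8 and 132 in the control (log2 fold change -0.88, SE 0.09, adjusted p = 0.007). Men, the malic enzyme, which makes NADPH and pyruvate, had 233, 229 and 221 TPM, against 319, 352 and 369.6 in the control (log2 fold change -0.60, SE 0.09, adjusted p = 0.038). Glyp, glycogen phosphorylase, had 17.1, 18.2 and 16.3 TPM, against 28.3, 35.6 and 33.5 in the control. Rdh1, named as a retinol dehydrogenase, had 75.7, 84.0 and 83.5 TPM, against 142, 119.6 and 157. Gs2, a glutamine synthetase, had a low level of 1.64, 1.96 and 2.698 TPM, against 7.49, 10.3 and 8.39 in the control.

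Mcad, the mitochondrial medium-chain acyl-CoA dehydrogenase of fatty acid oxidation, rose. It had 65.4, 57.2 and 63.8 TPM in libraries labelled HP1a RNAi, against 32.7, 35.6 and 32.4 in the control (log2 fold change 0.87, SE 0.11, adjusted p = 0.019). The lowest library labelled HP1a RNAi was well above the highest control. In the list of mitochondrial fatty acid oxidation genes, drawn up after values were seen, Mcad was the 1 call among 11 tested genes, and 5 members lay wholly above the control, against 10.6% of all tested genes. Among these 5, whd, the carnitine palmitoyltransferase that admits fatty acids to mitochondria, had 49.0, 45.5 and 43.9 TPM against 33.2, 37.1 and 30.8 in the control (adjusted p = 0.16). The thiolase yip2 had 128, 115 and 105 TPM against 76.0, 90.6 and 89.6 in the control (adjusted p = 0.16). Among 15 tested genes of lipid synthesis Men was the 1 call, 11 members lay below the median of all tested genes, and the list's median was -0.14 (-0.05 without control library 3). Besides Men, AcCoAS, ATPCL, Desat1 and Acsl lay wholly below the control without a call, and Pect lay wholly above it. Of all tested genes 10.7% lay wholly below. Neither acetyl-CoA carboxylase ACC nor fatty acid synthase FASN1 separated the groups: ACC had 104, 84.8 and 68.8 TPM against 65.9, 114 and 111 in the control, and FASN1 had 323, 270.2 and 233 against 244, 418 and 372. Of the 6 called metabolic genes, 0, 1 and 0 stayed called without HP1a RNAi libraries 1, 2 and 3, and 1, 1 and 3 without control libraries 1, 2 and 3.

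Secreted and immune proteins gave 3 lower calls. The serine protease grass acts upstream of Toll in sensing microbes. It fell to 4.72, 6.57 and 4.497 TPM in libraries labelled HP1a RNAi, against 17.2, 21.3 and 19.9 in the control (log2 fold change -1.72, SE 0.19, adjusted p = 0.013). The serpin Spn27A, an inhibitor of the proteases that drive melanisation and embryonic Toll signalling, had 35.2, 27.5 and 32.7 TPM, against 67.4, 69.5 and 83.5 in the control (log2 fold change -1.19, SE 0.14, adjusted p = 0.015). Idgf3, a secreted chitinase-like protein of the imaginal disc growth factor family, had 59.7, 64.8 and 59.5 TPM, against 92.9, 93.4 and 95.2 in the control (log2 fold change -0.61, SE 0.09, adjusted p = 0.038). The groups lay far apart in all 3. A list of 12 tested serpins, drawn up after values were seen, held Spn27A as its 1 call. All 12 lay below the median of all tested genes, some only slightly. Relative to that median Spn88Ea was at -0.002 and Spn42Da at -0.014. Spn27A, Spn77Ba, Spn77Bb and Spn77Bc lay wholly below the control, as did 10.7% of all tested genes. The other serpins overlapped it. The 12 tested Toll pathway genes and 17 tested Imd pathway genes held no call by limma, with medians of -0.07 and 0.12. An unadjusted p under 0.05 was reached by 1 and 4 of them, against 14.1% of all tested genes. The median of the 7 tested antimicrobial peptide genes turned with a single library: it was 0.21 with all 6 and -0.81 without control library 3. Acp24A4, an accessory gland peptide gene listed at 0 in all 3 control libraries, had 2.79, 6.47 and 7.83 TPM. Of the 4 calls of this role, Acp24A4 included, 1, 1 and 0 stayed called without HP1a RNAi libraries 1, 2 and 3, and 2, 0 and 2 without control libraries 1, 2 and 3.

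In RNA and protein handling the most abundant called gene was pAbp, the cytoplasmic poly(A)-binding protein, which coats mRNA tails and aids translation. It fell to 653, 969 and 539.9 TPM in libraries labelled HP1a RNAi, against 1752, 1741 and 1720.3 in the control (log2 fold change -1.31, SE 0.19, adjusted p = 0.037). The controls spanned a narrow range, and HP1a RNAi library 2 lay nearest to them. Ubc84D, a ubiquitin-conjugating enzyme, had 13.5, 10.1 and 12.4 TPM, against 24.4, 36.3 and 28.2 in the control. The gene pic, the fly DDB1 of the DNA damage-binding ubiquitin ligase, had 107, 102 and 98.2 TPM, against 147, 159.9 and 157 in the control. RpS10a, a copy of a ribosomal protein gene, had 0, 1.77 and 0 TPM, against 8.93, 9.46 and 8.26 in the control. It was the 1 call among 84 tested cytosolic ribosomal protein genes, whose median was -0.08 and turned to 0.03 without control library 3.

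The gene aub rose. It encodes Aubergine, a Piwi-family Argonaute that cuts transposon RNA with piRNAs, chiefly in the germline. There were 89.3, 78.0 and 83.2 TPM in libraries labelled HP1a RNAi, against 38.9, 44.8 and 32.5 in the control (log2 fold change 1.098, SE 0.14, adjusted p = 0.018). All 3 values lay far above the control. It was the 1 call among 23 tested genes of small RNA silencing. Of its partners, AGO3 had 12.5, 23.1 and 15.6 TPM against 31.9, 31.0 and 13.9 in the control, and armi, an RNA helicase of the piRNA pathway, had 119, 131 and 112 against 117, 122 and 119.6, both with overlap. The founding family member piwi had 2.22, 1.08 and 1.08 TPM against 2.80, 2.11 and 2.51 in the control, with adjusted p = 0.49. AGO2, the Argonaute that carries siRNA made from dsRNA, had 125, 118 and 97.9 TPM against 89.6, 109 and 58.8 in the control, with overlap. Other germline markers did not accompany aub: vas was at most 0.65 TPM, and osk had 4.34, 4.90 and 3.24 against 6.45, 7.26 and 6.41 in the control. Of the 6 calls in RNA, protein and DNA handling, 0, 3 and 0 stayed called without HP1a RNAi libraries 1, 2 and 3, and 0, 1 and 3 without control libraries 1, 2 and 3.

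Among membrane proteins, stj, an alpha2delta subunit of voltage-gated calcium channels, rose to 15.5, 16.8 and 12.7 TPM in libraries labelled HP1a RNAi, against 2.87, 4.59 and 3.30 in the control (log2 fold change 1.81, SE 0.22, adjusted p = 0.017). Npc1a, which moves sterols out of lysosomes and late endosomes, had 56.4, 57.6 and 55.4 TPM, against 33.4, 38.4 and 30.4 in the control (log2 fold change 0.72, SE 0.12, adjusted p = 0.047). Npc1a was the 1 call among 30 tested lysosome and autophagy genes, of which 7 lay wholly above and 6 wholly below the control, against 10.6% and 10.7% of all tested genes. Sirup, a mitochondrial assembly factor of respiratory complex II, had 208, 226 and 181 TPM, against 129, 125 and 105 in the control. Esp, a sulfate transporter family member, was lower, at 138, 148 and 174 TPM against 239.8, 238 and 248 in the control. Without HP1a RNAi libraries 1, 2 and 3 none of these 4 stayed called (adjusted p up to 0.21), and 0, 1 and 1 did so without control libraries 1, 2 and 3.

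Of the 24 called genes with no role given here, 5 were higher. The largest of these by level was CG2913, at 371, 336 and 241 TPM in libraries labelled HP1a RNAi, against 94.7, 149.7 and 121 in the control (log2 fold change 1.37, SE 0.20, adjusted p = 0.037). CG12107 had 134, 158 and 156 TPM, against 92.1, 87.4 and 68.9 in the control, and CG18605 had 64.9, 63.2 and 51.2, against 21.6, 25.7 and 34.8. The other 2 were cass and CG17264. Among the 19 lower ones, Drat, a dehydrogenase-domain gene, was called under all 16 alternative settings. It had 100.3, 109.6 and 108 TPM, against 221, 224 and 246 in the control (log2 fold change -1.11, SE 0.09, adjusted p = 0.004). CG15547 had 17.1, 13.4 and 15.7 TPM, against 34.8, 40.9 and 38.04. CG5191 had 40.8, 36.6 and 37.1 TPM, against 68.7, 90.9 and 80.9. CG2865 had 5.49, 9.81 and 4.95 TPM, against 19.4, 25.4 and 32.7. Of these 24 calls, 2, 3 and 3 stayed without HP1a RNAi libraries 1, 2 and 3, and 4, 2 and 10 without control libraries 1, 2 and 3.

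In 6 called genes every library of one group was listed at 0. CG41138, CG16713, CG4783 and CG15364 were listed at 0 in all 3 libraries labelled HP1a RNAi. In the control CG41138 had 9.38, 6.34 and 8.59 TPM and CG16713 had 9.45, 8.64 and 2.97. Acp24A4 and His2B:CG33910 were listed at 0 in all 3 control libraries, and His2B:CG33910 had 6.74, 3.73 and 9.08 TPM in libraries labelled HP1a RNAi. No fold is given for these 6 genes, since TPM keep no count behind a 0. His2B:CG33910 is one of many near-identical histone gene copies. A neighbouring copy, His2B:CG33908, stood the other way, at 7.90, 0 and 0.09 TPM against 7.10, 7.44 and 12.5 in the control, so the division of reads between copies is uncertain. Of the 62 called genes, 21 had a mean under 20 TPM, as did 38.2% of all tested genes.

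Low genes leaned downward as a whole. In the lowest quintile of genes by mean level, from 1.00 to 7.62 TPM, the median log2 fold change was -0.22 relative to all tested genes, and 18.4% of genes lay wholly below the control against 3.63% wholly above. In each of the other 4 quintiles the median was between -0.01 and 0.04. Over quintiles of transcript length the medians lay between -0.03 and 0.04. This quintile held 11 of the lower calls and 2 of the higher ones, with Gs2 and the 6 genes listed at 0 in one group among them. What part the lean has in those calls was not tested. GstE6, GstD1, pAbp, Fer1HCH and Men belong to the highest quintile, where 10.9% lay wholly below the control and 12.1% wholly above.

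Protein folding in the endoplasmic reticulum (ER) stood lower as a group without a call. Of 16 tested genes, 8 had an unadjusted p under 0.05, against 14.1% of all tested genes. Below the median of all tested genes lay 15, and 8 lay wholly below the control (10.7% of all tested genes did so). ERp60, a protein disulfide isomerase, had 1326, 1203 and 1277 TPM in libraries labelled HP1a RNAi, against 1683, 1776 and 1877 in the control (log2 fold change -0.49, SE 0.09, adjusted p = 0.072). Hsc70-3, the fly BiP, had 545, 518 and 458 TPM, against 683, 807 and 977 in the control (log2 fold change -0.68, adjusted p = 0.086). CaBP1 had 540.2, 489.6 and 584 TPM, against 701, 661 and 806 (adjusted p = 0.15). The list took 0.800%, 0.775% and 0.804% of coding TPM, against 0.984%, 0.991% and 1.18% in the control, the highest value being that of control library 3. Its median was -0.33 relative to all tested genes and -0.29 without that library. The stress sensor Ire1 had 51.6, 51.97 and 49.6 TPM against 46.6, 55.4 and 61.4 in the control, with overlap. Its target Xbp1 had 593, 579 and 587 against 584, 558 and 643, also with overlap. The sensor PEK lay wholly below the control, at 59.5, 55.4 and 47.3 TPM against 61.3, 69.5 and 60.6 (adjusted p = 0.43). The sensor Atf6 had 39.6, 74.3 and 51.0 TPM against 130, 106 and 57.7, with overlap (adjusted p = 0.32).

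Genes of basement membrane and matrix had a median of -0.34 with no call by limma among 14. An unadjusted p under 0.05 was reached by 4, against 14.1% of all tested genes. The laminin chain LanB1 had 175, 165 and 127 TPM in libraries labelled HP1a RNAi, against 179.9, 276 and 204.99 in the control. Plod, which hydroxylates collagen lysines, had 20.6, 19.1 and 21.9 TPM, against 25.7, 31.1 and 25.7. The exception was the matrix peroxidase Pxn, at 155, 134 and 117 TPM against 77.3, 96.6 and 103 in the control (adjusted p = 0.15). The ecdysone response list had MsrA as its 1 call among 15. Its transcription factors Eip93F and Eip75B were not called: Eip93F had 0.77, 1.57 and 0.90 TPM against 2.48, 2.85 and 2.97 in the control, and Eip75B had 17.8, 13.1 and 9.53 against 21.8, 38.04 and 17.6.

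**Figure D4:**
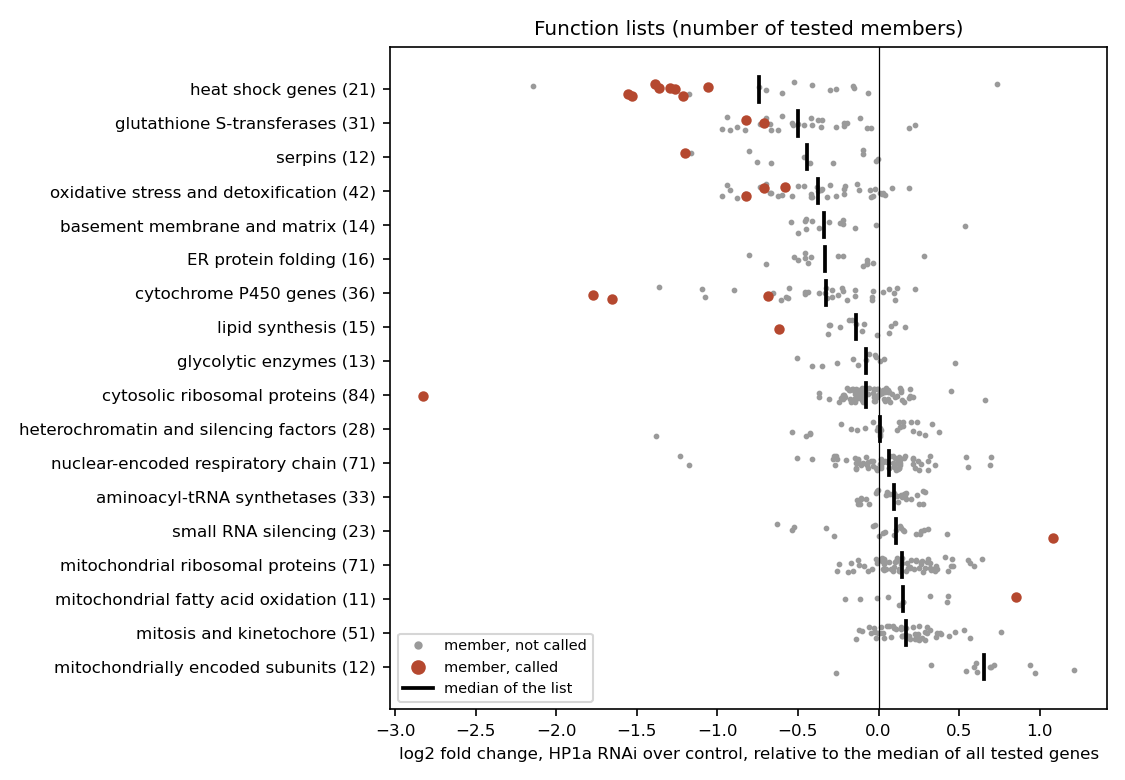
Log2 fold change of HP1a RNAi over control for the tested members of 18 lists, relative to the median of all tested genes (line at 0). Grey dots are members not called, red dots called members, black bars list medians. Medians run from -0.74 for heat shock genes to 0.65 for mitochondrially encoded subunits.

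Mitosis and mitochondrial translation stood slightly higher, also without a call by limma. Of 51 tested genes of mitosis and the kinetochore, 42 lay above the median of all tested genes, 12 lay wholly above the control and none wholly below, against 10.6% and 10.7% of all tested genes. An unadjusted p under 0.05 was reached by 11, against 14.1% of all tested genes. The list median was 0.17. Sse, the separase that cuts cohesin at anaphase, had 25.3, 23.4 and 24.6 TPM in libraries labelled HP1a RNAi, against 17.5, 17.5 and 13.3 in the control (adjusted p = 0.15). The kinesin ncd, which shapes the spindle, had 241, 221 and 238 TPM, against 182, 184 and 195 (adjusted p = 0.16). Borealin, encoded by borr, a chromosomal passenger, had 65.7, 50.4 and 63.2 TPM, against 40.8, 40.1 and 45.4 (adjusted p = 0.16). In all 3 genes the groups did not overlap. DNA replication, by contrast, had a median of -0.05 over 43 genes, 3 of them with an unadjusted p under 0.05 and none called by limma.

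Of 71 tested mitochondrial ribosomal proteins, 59 lay above the median of all tested genes, 19 wholly above and 1 wholly below the control (10.6% and 10.7% of all tested genes), with a list median of 0.15. An unadjusted p under 0.05 was reached by 12, against 14.1% of all tested genes. The list took 0.713%, 0.682% and 0.705% of coding TPM in libraries labelled HP1a RNAi, against 0.656%, 0.604% and 0.601% in the control. Subunits encoded by the mitochondrial genome had the highest median among lists of over 10 tested genes, 0.65 over 12, with no call by limma and none at an unadjusted p under 0.05. Their median was 0.15 without control library 3. That library held 1.01% of coding TPM in these genes, against 4.08% and 3.20% in controls 1 and 2 and 3.21%, 4.32% and 3.90% in the libraries labelled HP1a RNAi. ND5 had 1084, 1379 and 1257 TPM, against 1154, 989 and 464 in the control. The nuclear-encoded respiratory chain had a median of 0.06 over 71 genes with no call by limma and 11 at an unadjusted p under 0.05.

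**Figure D5:**
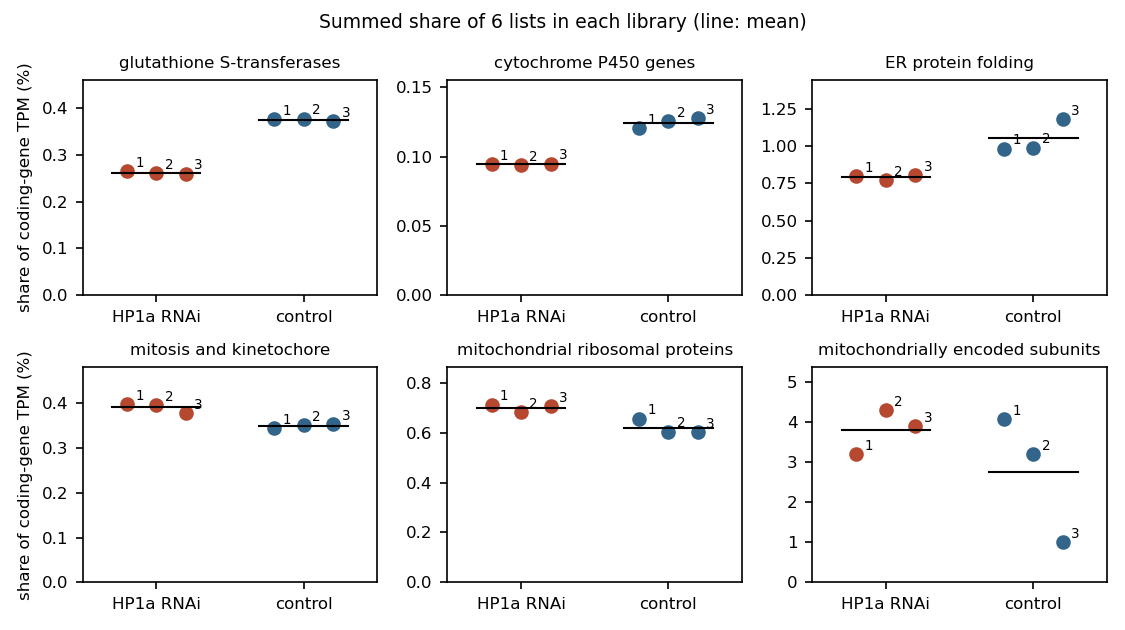
Summed share of coding-gene TPM held by 6 lists in each library, labelled by replicate number, HP1a RNAi on the left and control on the right of each panel. The glutathione S-transferases, the called GstE6 and GstD1 included, lie at 0.260% to 0.264% against 0.371% to 0.377% in the control. The mitochondrially encoded subunits overlap, and control library 3 is lowest.

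Lists closest to HP1a itself held no call by limma. Of 28 tested heterochromatin and silencing factors besides the HP1a gene, 2 had an unadjusted p under 0.05 and the median was 0.01. The 15 insulator and architectural proteins had a median of 0.11 with 3 at an unadjusted p under 0.05, against 14.1% of all tested genes. Trl, Chro, Dref and mod(mdg4) lay wholly above the control and none wholly below, against 10.6% and 10.7% of all tested genes. Trl had 89.9, 99.8 and 84.3 TPM against 59.4, 72.9 and 67.2 in the control (adjusted p = 0.15). The 30 Polycomb and Trithorax proteins had a median of -0.04 with none at an unadjusted p under 0.05. Proteasome subunits, vacuolar ATPase subunits, secretory coats and RNA polymerase subunits had medians between -0.002 and 0.02 and no call by limma, with 1 to 2 members of each, or none for the coats, at an unadjusted p under 0.05.

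At transcript level 11 of 11390 tested transcripts were called (0.0966%), 1 higher and 10 lower, all without overlap, as were 17.5% of all tested transcripts. Apart from both transcripts of the HP1a gene, 8 belonged to genes already called: Cyp9c1, Cyp6a8, GstD1, Hsp70Ab, Hsp26, Hsp68, Hsp23 and Hsp27. The 1 call in a gene that was not called itself was Nipsnap transcript CG9212-RC, of a family of mitochondrial proteins. It was listed at 0 in all 3 libraries labelled HP1a RNAi, against 12.6, 10.6 and 16.4 TPM in the control. It was also listed at 0 in the 3 Su(var)3-9 RNAi libraries. Transcript calls numbered 0 without any 1 of the HP1a RNAi libraries or without control library 2, 2 without control library 1, and 5 without control library 3.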

How the data were processed

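The authors sequenced total RNA of 9 S2 libraries. Per the labels and the study's methods they trimmed reads with Cutadapt, aligned to dm3 with STAR and quantified with RSEM, and deposited TPM per gene and transcript. The setting for strand is not given in the sources used here, so overlapping antisense genes cannot be told apart. Tables of the authors' own comparisons (posterior probabilities, fold changes and condition means) were not used.

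Groups came from the labels. CG genes were rescaled to 1000000 per library, and log2(TPM + 1) was fitted with limma 3.58.1 in R 4.3.3 (eBayes with trend, two-sided, Benjamini-Hochberg, threshold 0.05) over the 6 libraries, for 8116 genes and 11390 transcripts with a mean of at least 1. Changes of low genes come out smaller on that scale. The study tested counts in RSEM, which TPM do not allow. The fit was tested on simulated data in 10 runs with 200 changed genes. It recovered 62% of changes of 1 log2 unit and 87% of changes of 2, and the share of false calls was 3.88%. A gene without a call may therefore still differ. A gene's groups overlap unless all values of one lie beyond all of the other. Figures were drawn with matplotlib 3.10.9, and tables made with pandas 2.3.3 under Python 3.11.15.

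RefSeq's gene table, whose release is later than dm3, named 13585 of 14088 identifiers (96.4%), so no coordinates are given. Of the tested genes 7956 were annotated as protein-coding and 40 as another kind. Of 764 list entries, 18 found no gene. The members and lists were chosen with earlier results of these data known. Named genes followed a rule: the HP1a gene, the 12 largest rises and 18 largest falls among called genes outside the heat shock and heterochromatic lists, the 2 leading called members of each list, and the 3 leading members of the 4 highest and 4 lowest lists. Roles, the lists of P450 enzymes, glutathione S-transferases, UDP-glycosyltransferases, serpins and fatty acid oxidation, and the other genes named were chosen after values were seen. Lists were given no test.

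Alternatives were no filter, a mean minimum of 5, a pseudocount of 0.1, median-ratio size factors, quantile normalization, TPM as deposited, all 9 libraries, a replicate block, eBayes without trend, array weights and leaving out each library.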

Additional observations from a re-analysis of the deposited data

How the results depend on the processing

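Of the 62 called genes, 9 stayed called in every one of the 16 alternatives in which they were tested. These were CG41138, Cyp9c1, Cyp6a8, Drat, Hsp70Ab, Hsp26, Hsp68, Hsp23 and the HP1a gene. CG41138 had a mean under 5 and so was not tested under the mean minimum of 5. None of the 62 changed direction in any alternative. The count of called genes was 37 without the filter (9 higher, 28 lower), where more genes were tested, and 11 to 47 with a library left out, where fewer libraries were fitted (11, 20 and 13 without HP1a RNAi libraries 1, 2 and 3, and 22, 16 and 47 without control libraries 1, 2 and 3). Size factors gave 89 and array weights 90, and all 62 were kept under size factors. On TPM as deposited 440 genes were called, 9 higher and 431 lower, against 13 and 49 after rescaling, and the median log2 fold change of all tested genes shifted to -0.25. The gene ncd, at 0.32 after rescaling, was then at -0.049. Called transcripts numbered 4 without the filter and 0 to 5 with a library left out.

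Replicate numbers did not pair the libraries: same-numbered libraries of the 2 groups had deviations that correlated at -0.12, 0.09 and 0.05. With the replicate number as a block 20 genes were called (18 of them among the 62) and 0 transcripts, with 915 transcripts at an unadjusted p under 0.05. TPM hold no depth, so what depth limits cannot be stated.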
